A study of Homo sapiens with 44 samples.

Results

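The amino acid transporter genes of colon fibroblasts were taken as every gene symbol that consists of SLC1A, SLC3A, SLC6A, SLC7A, SLC36A, SLC38A or SLC43A followed by digits alone. This rule, which uses names and no measured value, found 59 of the 40663 symbols of the count table. They were 7 SLC1A, 2 SLC3A, 19 SLC6A, 13 SLC7A, 4 SLC36A, 11 SLC38A and 3 SLC43A genes. Another 21 symbols that begin in the same way, such as antisense transcripts and pseudogenes, were not counted as members.

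The data were bulk RNA-seq libraries of Ccd-18Co, a fibroblast line from human colon that is a single commercial line used up to passage 20. The 11 groups of 4 replicates were unstimulated cells and cells given TNF, IL-1β, IFNα, IFNγ, TGF-β1, IL-13, OSM, IL-17A, IL-22 or IL-6. Each cytokine was used at 10 ng/ml except IL-1β, at 0.1 ng/ml by the sample labels. All 11 groups had 72 h without serum before the 24 h of stimulation, or of none, so the unstimulated level is that of serum-starved cells. The comparisons address which cytokines move the transcripts of amino acid carriers in these fibroblasts.

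The members belong to the solute carrier (SLC) superfamily, and many of them move amino acids across the plasma membrane or the lysosomal membrane. SLC38A genes encode sodium-coupled carriers of neutral amino acids, glutamine among them, and SLC1A genes encode carriers of glutamate and neutral amino acids. SLC7A light chains exchange amino acids and mostly need a heavy chain, SLC3A2 or SLC3A1, to reach the membrane, while the SLC7A cationic carriers work without one. The SLC7A11 light chain with SLC3A2 forms the cystine-glutamate exchanger that feeds glutathione synthesis, and several carrier genes are known targets of the amino acid stress factor ATF4. Some SLC36A carriers are proton-coupled, and many SLC6A carriers serve neurotransmitters as well as amino acids.

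Total counts per library were between 742173 and 2213424, and the members took 0.113% to 0.256% of them. At this depth, 3 counts in a library corresponded to 1.39 to 3.85 CPM, the unit of all levels here, which is a count brought to a common library size after normalization. A group with at most 3 counts of a gene in every library was treated as not measured for that gene, a limit that covers counting error only. The libraries held the fibroblast markers DCN (median 15764 CPM) and COL1A1 (median 8235 CPM), while PDGFRB had a median of 7.54 CPM. Of the defining markers of other cell types, CDX2, MUC2, KDR, CD3E, ITGAM and SOX10 were at 0 in the 44 libraries, EPCAM reached 1 count and VIL1, of epithelium, reached 26.6 CPM. The smooth muscle markers MYH11 (median 1.37 CPM) and CNN1 (median 11.2 CPM) were low, and whether other cells had a part in the results was not tested. Unstimulated replicate 1 stood apart in its normalization factor of 1.19 and in SLC38A2, and calls that turn on it are given below. In bulk libraries, fewer expressing cells and less RNA per cell cannot be told apart.

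Of the 59 members, 9 were listed at 0 in every library and 26 had counts too low for the filter, which left 24 tested members. Among the 9 members at 0 were SLC36A3, SLC38A3, SLC38A8, SLC6A2, SLC6A3, SLC6A5, SLC6A13 and SLC6A19. They include neurotransmitter carriers for noradrenaline (SLC6A2), dopamine (SLC6A3) and glycine (SLC6A5), and the intestinal epithelial carrier SLC6A19. When every gene with a count was fitted, 0 of the 26 members below the filter were called after any cytokine by edgeR, with 8 of 260 tests at an unadjusted p under 0.05. The 24 tested members were therefore a selection by abundance and do not stand for the whole set.

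Per length of transcript, SLC38A2 was the most abundant member in unstimulated cells at 201 ± 41.5 CPM per kb (SD, n = 4). SLC38A2, a sodium-coupled carrier that cells raise when amino acids are scarce, had a higher level per kb than 95.8% of the tested genes. Next came SLC38A6 at 47.1 ± 3.80 CPM per kb (SD, n = 4), an orphan of the same family. The heavy chain SLC3A2 (22.4 ± 18.1), the glutamine carrier SLC38A1 (22.4 ± 4.02) and the light chain SLC7A11 (22.0 ± 4.39 CPM per kb, SD, n = 4 each) followed at levels that did not differ beyond their spread. SLC36A4 (8.29 CPM per kb), SLC1A5 (6.89 CPM per kb) and SLC6A15 (6.62 CPM per kb) overlapped with one another, and the remaining 16 tested members lay between 0.466 and 5.27 CPM per kb. The length used was that of the canonical transcript of each gene, such as 1605 bases for SLC38A6 and 9645 for SLC7A11. Which transcripts the cells held was not tested. Not scaled by length, SLC38A6 (75.6 ± 6.1 CPM) lay below SLC7A11 (212 ± 42.3) and SLC38A1 (182 ± 32.5 CPM, SD, n = 4 each). SLC38A2 alone made up 36.5% to 67.9% of the summed member CPM in the 44 libraries.

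**Figure D1:**
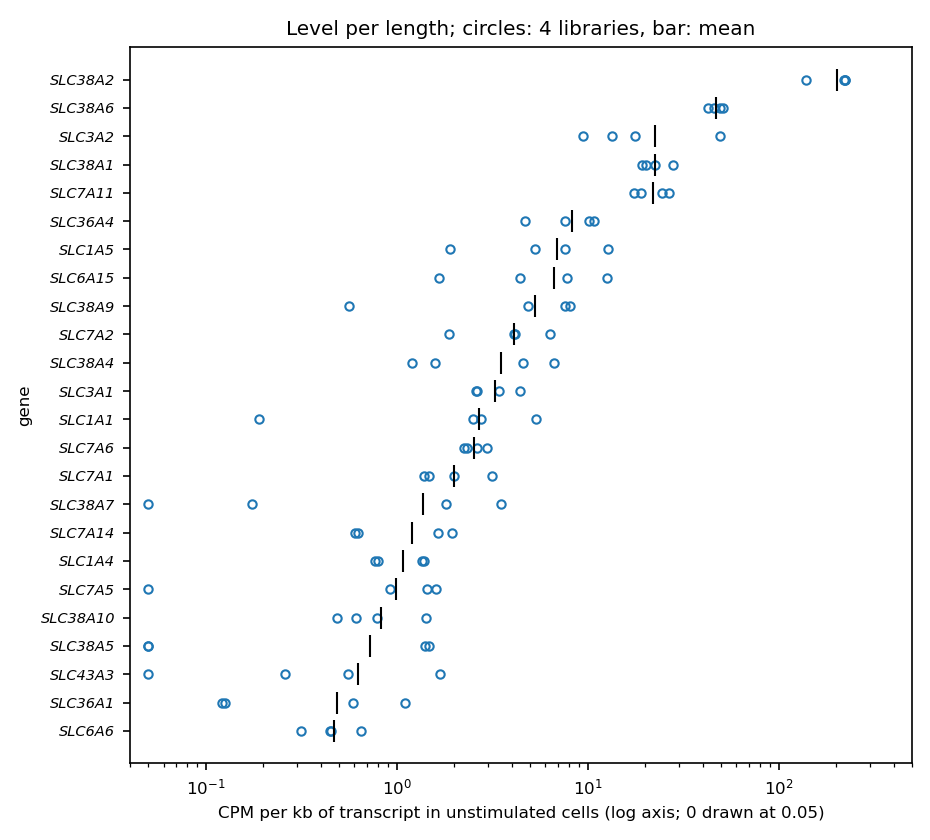
Level per length of the 24 tested members in unstimulated cells, in CPM per kb of transcript on a log axis, with 4 open circles for the libraries and a bar for their mean. SLC38A2 stands highest at 201 CPM per kb, and SLC6A6 lowest at 0.466 CPM per kb.

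The summed CPM of the members in unstimulated libraries was 1447, 1913, 1790 and 1803. After TNF it was 1129, 1238, 1320 and 1668, and after OSM 1743, 1899, 1956 and 2457. Both ranges overlapped with that of unstimulated cells. Without SLC38A2, the sum was 477 to 526 CPM after IFNα, 562 to 706 CPM after IL-17A and 971 to 1033 CPM after OSM, against 720 to 851 CPM in unstimulated cells. These 3 ranges did not overlap with that of unstimulated cells, and those after the other 7 cytokines did.

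Over the 10 cytokines, 9 of the 24 tested members were called against unstimulated cells, at a Benjamini-Hochberg adjusted p under 0.05 over all 9513 tested genes in edgeR's quasi-likelihood test. Of all tested genes, 27.4% were called after at least 1 cytokine. Of the 24 calls among 240 tests, 19 were lower and 5 were higher than unstimulated, and in 21 calls the 4 stimulated libraries lay on one side of the 4 unstimulated ones. Over all genes, 5.45% of the 95130 tests were calls and 4.44% were calls without overlap, so that 81.5% of all calls were free of overlap, against 87.5% of the members' calls. SLC1A5, SLC38A1, SLC38A2, SLC38A4, SLC7A11 and SLC7A14 were called lower only, SLC38A6 and SLC6A15 higher only, and SLC36A4 in both directions. A test over all 11 groups together called 13 members (54.2%), against 35.7% of all genes. The 10 comparisons share the 4 unstimulated libraries, so their calls are not independent of one another.

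TNF called 7 of the 24 members (29.2%), where 11.5% of all tested genes were called. IL-1β called 4 members (16.7%, against 7.38% of all genes), IFNα called 4 (16.7%, against 9.85%) and IFNγ called 4 (16.7%, against 10.6%). TGF-β1 called 2 (8.33%, against 5.69%), while IL-13 (1 member, 4.17% against 3.93%) and OSM (1 member, 4.17% against 3.96%) stood near the background share. IL-17A called 1 member (4.17%), where 1.52% of all genes were called. IL-22 called 0 members and 0 genes by edgeR, with 4 members at an unadjusted p under 0.05 and 1 member, SLC38A1, called by DESeq2. IL-6 called 0 members and 1 gene (0.0105%) by edgeR, with 0 members at an unadjusted p under 0.05 and 0 called by DESeq2.

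By direction, TNF called 6 members lower, where 6.09% of all genes were called lower, and 1 higher, where 5.37% were. IL-1β called 3 lower (3.92% of all genes) and 1 higher (3.46%), and IFNγ called 3 lower (5.13%) and 1 higher (5.52%). The calls of IFNα were all 4 lower (4.86%), those of TGF-β1 both lower (3.08%) and that of IL-17A lower (0.925%), whereas those of IL-13 (1.53%) and OSM (1.42%) were higher. When a log2 fold change beyond 1.5 was also required, 5 members remained for TNF (4.19% of all genes), 2 for IL-1β (2.78%), 2 for IFNα (3.98%), 3 for IFNγ (3.53%) and 1 for TGF-β1 (1.7%). Under that rule edgeR left no member for IL-13 (1.47% of all genes), OSM (1.3%), IL-17A (0.452%), IL-22 (0%) or IL-6 (0.0105%).

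The median log2 fold change of the 24 members was 0.06 after TNF, -0.34 after IL-1β, -0.42 after IFNα and -0.28 after IFNγ. It was -0.67 after IL-17A and 0.28 after OSM, and between -0.07 and 0.02 after TGF-β1, IL-13, IL-22 and IL-6. The median over all tested genes lay between -0.05 and 0.00 in these 10 comparisons. After TNF, 13 members lay above 0 and 11 below.

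**Figure D2:**
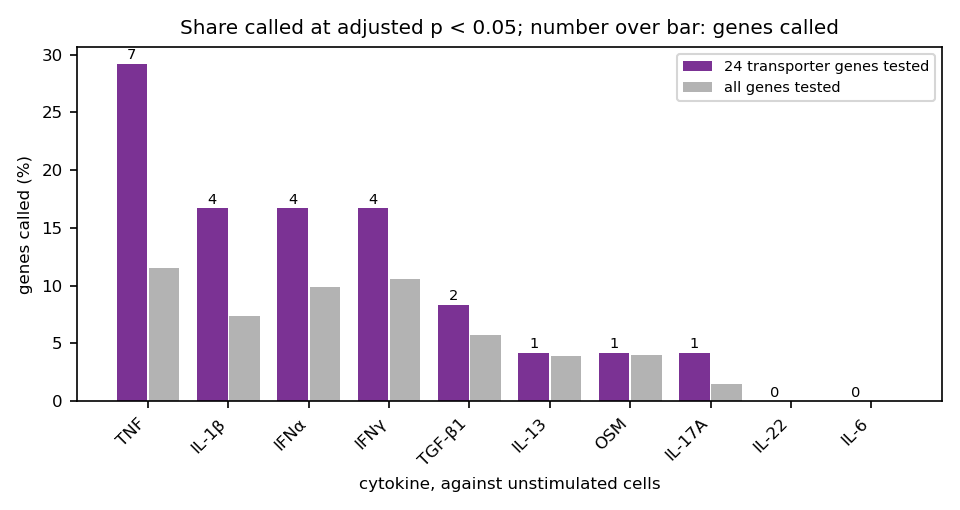
Share of genes called at an adjusted p under 0.05 after each cytokine, in percent, for the 24 tested transporter genes (purple, with the number called over the bar) and for all 9513 tested genes (grey). The purple bar reaches 29.2% after TNF, where the grey bar is at 11.5%, and the pairs for IL-13 and OSM are nearly level.

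**Figure D3:**
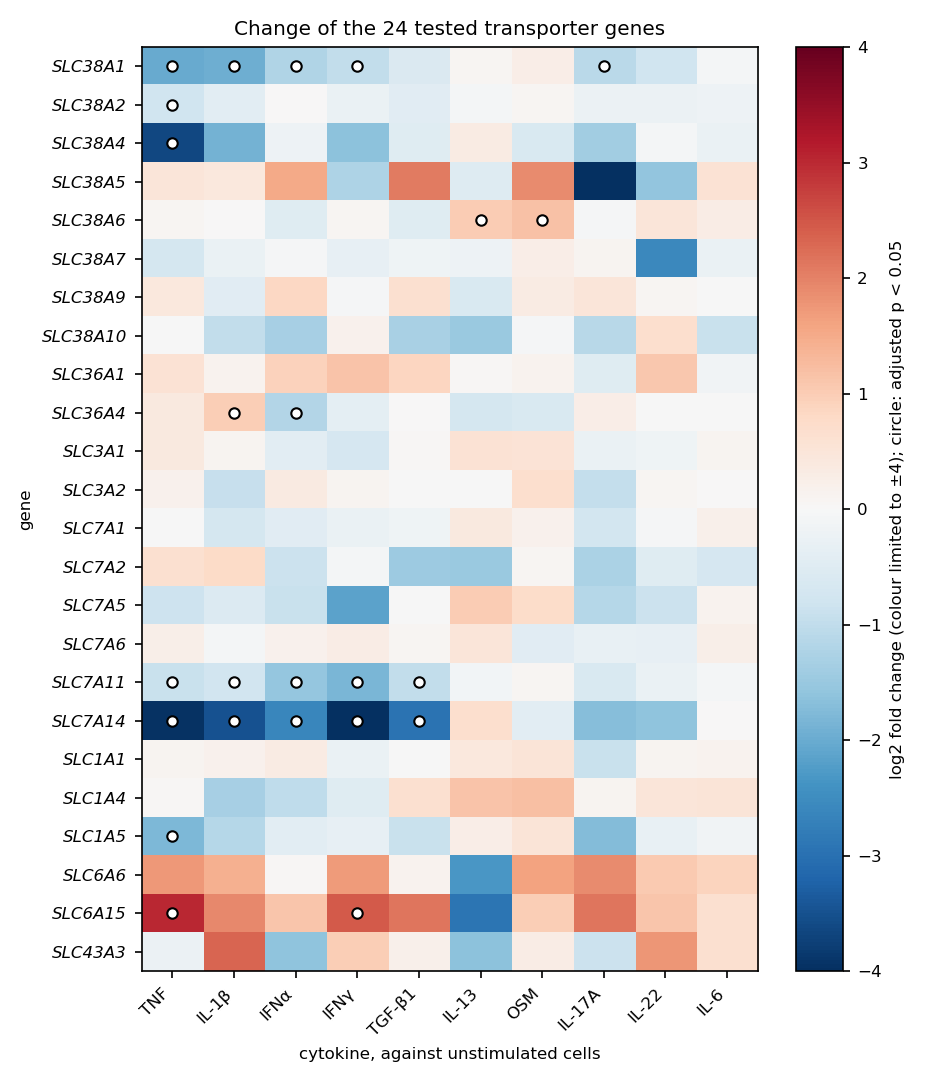
Log2 fold change of the 24 tested members (rows) after each of the 10 cytokines (columns) against unstimulated cells, blue for lower and red for higher, with a circle where the adjusted p was under 0.05. The 19 lower calls lie in 7 genes, with SLC38A1, SLC7A11 and SLC7A14 each called in 5 cytokines.

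SLC38A1 encodes a sodium-coupled carrier for glutamine and other small neutral amino acids. Its level in unstimulated replicates 1 to 4 was 182, 227, 163 and 155 CPM. After TNF it was 40.2, 20.7, 51.0 and 63.7 CPM, and after IL-1β 54.0, 55.0, 32.4 and 45.4 CPM. Every library of both groups lay below the lowest unstimulated library. SLC38A1 fell by 2.03 on the log2 scale after TNF (standard error, SE, 0.25, 4.08-fold, adjusted p = 3.79e-08) and by 1.96 after IL-1β (SE 0.24, 3.88-fold, adjusted p = 7.51e-08).

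After IFNα, SLC38A1 was at 70.0, 77, 71.5 and 94.7 CPM (log2 fold change -1.21, SE 0.24, adjusted p = 0.000194). After IFNγ it was at 87.4, 120, 70.2 and 90.4 CPM (log2 fold change -0.98, SE 0.23, adjusted p = 0.00331). IL-17A libraries held 117, 76.5, 69.7 and 81.5 CPM (log2 fold change -1.07, SE 0.23, adjusted p = 0.00745). None of these 12 libraries reached the unstimulated range, although the call for IL-17A was lost without unstimulated replicate 2 (adjusted p = 0.0612). IL-22 libraries lay between 78.4 and 124 CPM, also below the unstimulated ones, but the adjusted p was 0.157. The levels after TGF-β1 (74.4 to 177 CPM), IL-13 (134 to 221 CPM) and IL-6 (140 to 208 CPM) overlapped with the unstimulated range, and OSM libraries were nearly equal at 216 to 223 CPM.

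SLC38A2 held 667, 1062, 1070 and 1065 CPM in unstimulated replicates 1 to 4 and 542, 557, 482 and 644 CPM after TNF. Unstimulated replicate 1 lay far below the other 3, and still above every TNF library. The log2 fold change was -0.80 (SE 0.18, 1.74-fold, adjusted p = 0.00218), and it lay between -0.94 and -0.72 as each of the 8 libraries was left out. TNF was the cytokine after which SLC38A2 was called, and IL-1β libraries, at 649 to 853 CPM, overlapped with the lowest unstimulated library.

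SLC38A4, another carrier of this family with neutral and cationic substrates, held 26.4, 18.2, 6.33 and 4.78 CPM in unstimulated replicates 1 to 4. After TNF it was at 1.41, 0.861, 1.5 and 0.536 CPM, which is 1 or 2 counts in each library and under the limit of measurement. Against that limit SLC38A4 was at least 6.52-fold lower after TNF (adjusted p = 0.00297 for the fitted difference). The unstimulated libraries themselves spread widely, from 7 to 54 counts. Levels after IL-1β (1.01 to 8.62 CPM) and IFNγ (0.712 to 11.3 CPM) overlapped with them and were not called.

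SLC38A1, SLC38A2 and SLC38A4 lie in turn on the minus strand of chromosome 12 (GRCh38, GENCODE release 44). They span 46183063 to 46270017, 46358188 to 46372773 and 46764761 to 46832408, with gaps of 88170 and 391987 bases between them. Since these 3 neighbours were called lower after TNF together, the 250 bases before each of their RefSeq starts (GRCh38.p14, minus strand) are shown, 5′ to 3′. RefSeq gives 2 starts for SLC38A1, and its windows and that of SLC38A4 lie within the span that GENCODE gives the gene. Capitals mark matches on either strand to 1 of 6 motifs searched by their letters.
SLC38A1 (chr12:46266517-46266766): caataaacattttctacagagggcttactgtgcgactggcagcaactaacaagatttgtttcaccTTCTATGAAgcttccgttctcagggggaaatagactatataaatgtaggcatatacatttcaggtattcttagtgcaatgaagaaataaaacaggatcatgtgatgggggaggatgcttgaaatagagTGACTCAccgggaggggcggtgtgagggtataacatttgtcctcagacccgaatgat
SLC38A1, other start (chr12:46267988-46268237): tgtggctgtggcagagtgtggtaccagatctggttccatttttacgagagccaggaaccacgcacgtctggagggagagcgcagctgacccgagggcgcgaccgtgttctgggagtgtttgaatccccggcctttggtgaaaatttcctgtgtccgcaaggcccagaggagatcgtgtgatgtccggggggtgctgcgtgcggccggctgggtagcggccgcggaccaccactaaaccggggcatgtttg
SLC38A2 (chr12:46372774-46373023): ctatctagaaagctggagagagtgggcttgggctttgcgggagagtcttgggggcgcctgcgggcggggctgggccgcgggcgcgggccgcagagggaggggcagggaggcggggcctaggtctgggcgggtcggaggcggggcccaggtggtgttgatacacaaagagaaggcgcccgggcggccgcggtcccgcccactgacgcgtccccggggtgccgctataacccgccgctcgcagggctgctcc
SLC38A4 (chr12:46825998-46826247): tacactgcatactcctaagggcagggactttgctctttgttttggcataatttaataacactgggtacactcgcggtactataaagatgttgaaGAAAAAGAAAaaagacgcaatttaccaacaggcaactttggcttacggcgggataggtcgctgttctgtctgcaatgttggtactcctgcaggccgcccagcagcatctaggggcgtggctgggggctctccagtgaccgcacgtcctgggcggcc
The first SLC38A1 window held TTCTATGAA, a match to the GAS letters TTCNNNGAA, and TGACTCA, a match to the AP-1 letters TGANTCA, each found in 6.57% of 35116 RefSeq windows of this length. The SLC38A4 window held GAAAAAGAAA, a match to the interferon-stimulated response element core, found in 3.02% of windows. Both other windows held no match to these, to the C/EBP-ATF response element TGATGNAA (3.14% of windows), the antioxidant response element TGACNNNGC (10.9%) or the NF-kB site (1.4%). A match of letters is a description and not a binding site, and no motif was matched in more than 1 of the 3 genes. Bases outside these windows, introns included, were not searched. The table of starts held 18 of the 24 tested members.

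SLC38A6, an orphan carrier of the same family, was called higher after IL-13 and after OSM. Unstimulated libraries held 68.1, 73.6, 78.8 and 82.0 CPM. IL-13 libraries held 117, 166, 182 and 151 CPM (log2 fold change 1.03, SE 0.21, adjusted p = 0.00159). OSM libraries held 174, 175, 172 and 153 CPM (log2 fold change 1.16, SE 0.21, adjusted p = 0.000265). Each of these 8 libraries lay above the unstimulated range, and both calls held in 14 alternatives each, but neither passed the fold threshold of 1.5 on the log2 scale. SLC38A6 was the single member called after either of these cytokines. Its exons overlap on the opposite strand with TRMT5, a tRNA methyltransferase gene, and kallisto's default settings use no strand, so reads of the shared stretch cannot be told apart. TRMT5 was at 27.0 ± 2.59 CPM (SD, n = 4) in unstimulated cells, 20.7 ± 9.58 after IL-13 and 34.3 ± 4.47 after OSM, and the part of shared reads was not tested.

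Of the other SLC38A members, SLC38A5, SLC38A7, SLC38A9 and SLC38A10 were tested and not called after any cytokine. SLC38A9, a lysosomal arginine sensor, had group means between 8.79 and 23.6 CPM. SLC38A7, a lysosomal glutamine and asparagine carrier, ranged from 1.12 to 6.89 CPM and SLC38A10 from 1.33 to 6.18 CPM. SLC38A5, a glutamine and serine carrier, was called in the test over all 11 groups (adjusted p = 0.00513), with 8.58, 8.51, 4.54 and 5.14 CPM after TGF-β1 against 2.94, 0.00, 2.81 and 0.00 CPM in unstimulated cells. That difference was not called on its own (adjusted p = 0.23). SLC38A11 had 12 counts in the 44 libraries together.

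**Figure D4:**
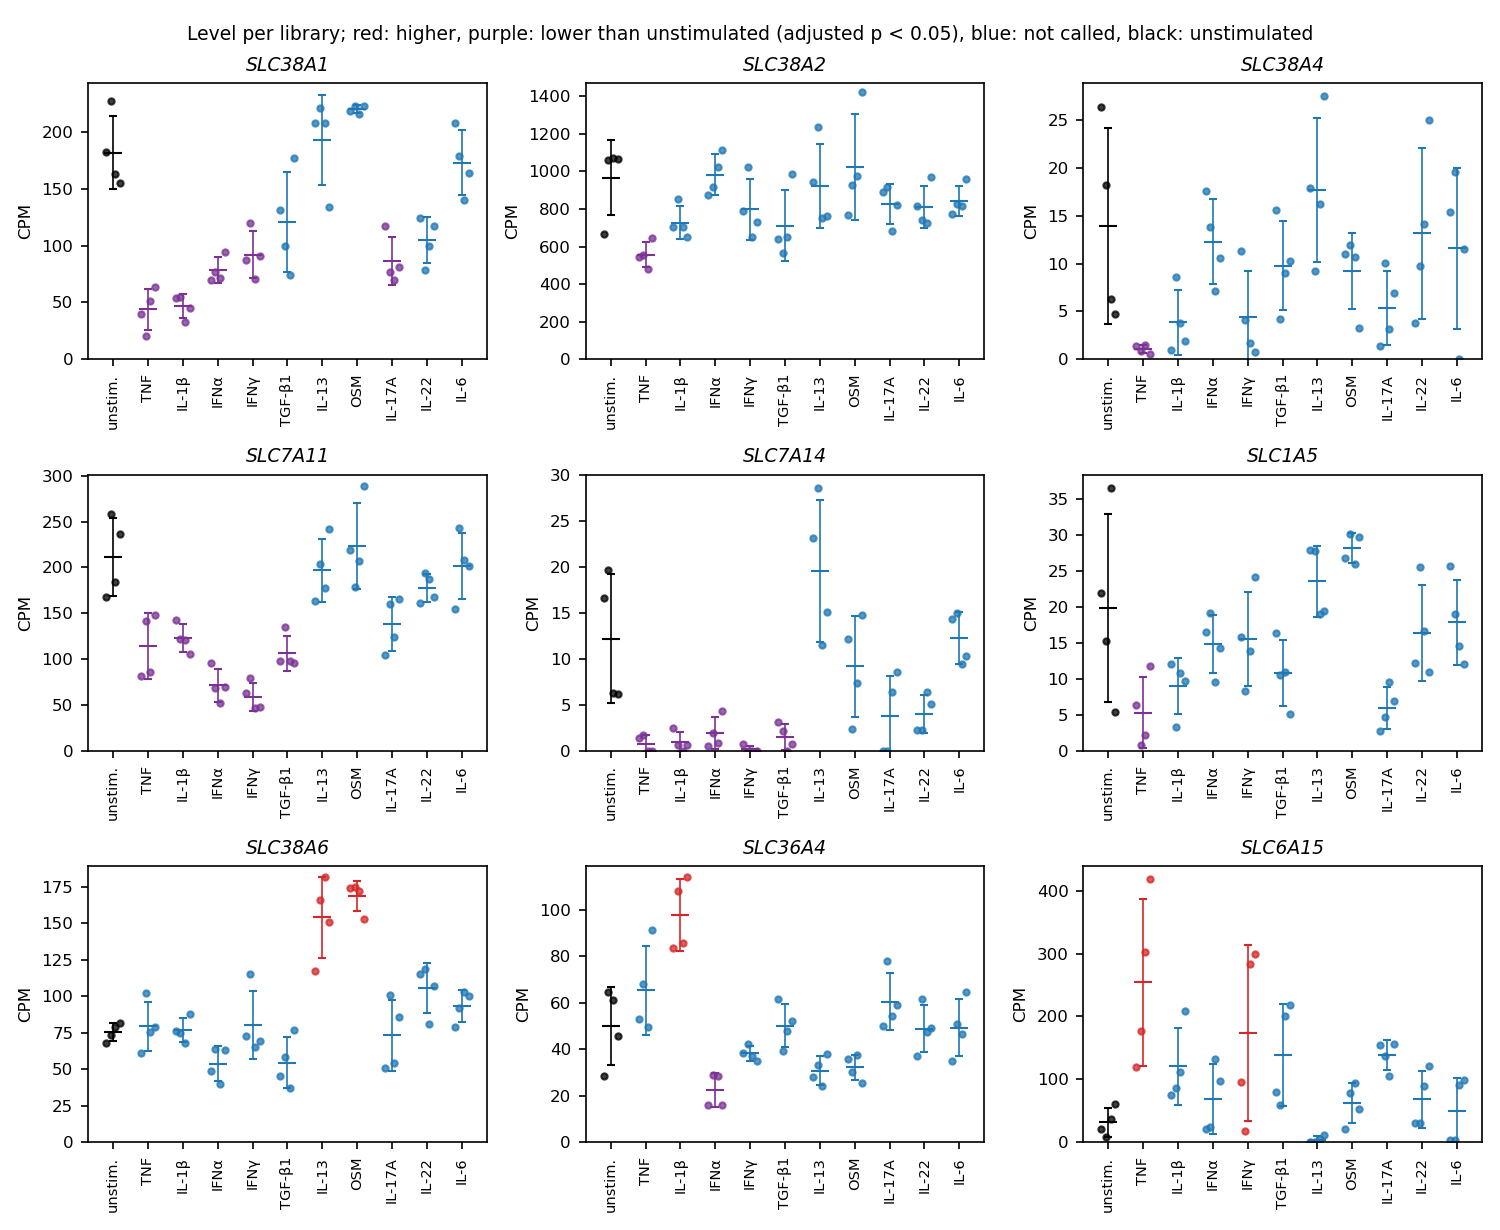
Level in CPM of the 9 called members in each of the 44 libraries, by group, with dots for libraries and a bar and whiskers for mean and SD (n = 4). Red marks groups called higher, purple groups called lower, blue groups not called and black the unstimulated cells, and each axis begins at 0.

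The heavy chain SLC3A2, which carries the light chains to the membrane, was not called after any cytokine. It held 92.5, 33.5, 25.3 and 17.8 CPM in unstimulated replicates 1 to 4, so replicate 1 stood far above the other 3. After IL-1β it was at 30.8, 17.2, 34.3 and 7.13 CPM (log2 fold change -0.93, SE 0.45, adjusted p = 0.27). IL-17A libraries held 21.8, 17.2, 31.2 and 19.5 CPM (log2 fold change -0.94, SE 0.45, adjusted p = 0.376). OSM libraries held 105, 72.3, 56.0 and 40.4 CPM, the highest group mean, and also overlapped with the unstimulated range. In the other groups the libraries lay between 17.4 and 78.7 CPM. The spread of unstimulated replicate 1 against the other 3 leaves a wide interval, which for OSM against unstimulated ran from -0.19 to 1.54 on the log2 scale.

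SLC7A11, the light chain of the cystine-glutamate exchanger, fell after 5 cytokines. Its unstimulated libraries held 168, 258, 184 and 236 CPM. IFNγ libraries held 62.5, 78.9, 46.8 and 47.7 CPM, and IFNα libraries 95.3, 68.5, 52.4 and 69.1 CPM. The interferon libraries had less than the lowest unstimulated library in 8 of 8 cases. SLC7A11 fell by 1.84 on the log2 scale after IFNγ (SE 0.22, 3.59-fold, adjusted p = 1.16e-08) and by 1.56 after IFNα (SE 0.21, 2.95-fold, adjusted p = 2.7e-07).

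After TGF-β1, SLC7A11 was at 97.5, 135, 98.0 and 95.4 CPM (log2 fold change -0.99, SE 0.21, adjusted p = 0.00159). After TNF it was at 81.2, 142, 85.5 and 148 CPM (log2 fold change -0.89, SE 0.21, adjusted p = 0.0022). IL-1β libraries held 143, 122, 121 and 106 CPM (log2 fold change -0.78, SE 0.20, adjusted p = 0.00946). These 12 libraries lay below the unstimulated range, and the call for IL-1β was lost without unstimulated replicate 2 (adjusted p = 0.0591). IL-17A libraries, at 104 to 166 CPM, lay below it too and were not called (adjusted p = 0.137). IL-13, OSM, IL-22 and IL-6 libraries overlapped with unstimulated ones. The antisense transcript SLC7A11-AS1, whose exons overlap with SLC7A11, was far less abundant, with group means of 1.93 to 6.54 CPM after cytokines and 9.51 ± 4.36 CPM (SD, n = 4) in unstimulated cells.

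Of the other light chains that pair with SLC3A2, SLC7A5 and SLC7A6 were tested and not called. SLC7A5, the main carrier of large neutral amino acids in many growing cells, held 7.34, 6.56, 4.22 and 0.00 CPM in unstimulated replicates 1 to 4. After IFNγ it was at 1.51, 0.831, 0.867 and 0.712 CPM, at most 2 counts in a library, against an unstimulated library that itself held 0 (adjusted p = 0.131). IL-13 libraries held 13.3, 13.1, 6.35 and 4.44 CPM (adjusted p = 0.587), and no group was separated from the unstimulated one. SLC7A6 held 18.6, 14.6, 14.1 and 16.4 CPM in unstimulated cells, and its libraries after cytokines lay between 7.60 and 28.7 CPM. The exons of SLC7A6 overlap with SLC7A6OS on the opposite strand, so reads of the shared stretch cannot be told apart. SLC7A6OS was at 12.5 ± 5.2 CPM in unstimulated cells, against 15.9 ± 2.05 for SLC7A6 (SD, n = 4 each). The part of shared reads was not tested. SLC7A7 had 58 counts in the 44 libraries, with 1.10, 3.29, 2.38 and 2.49 CPM after IFNα against 0.00, 0.00, 0.704 and 0.00 CPM in unstimulated cells. It lay below the filter, and its adjusted p was 0.335 in the fit of all genes with a count. SLC7A8 had 19 counts and SLC7A10 had 1 count in the 44 libraries, so the heavy chain had SLC7A11 as its most abundant measured partner on the scale of CPM per kb, with SLC7A6 at 2.54 and SLC7A5 at 0.995 CPM per kb.

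SLC7A14, which is related to the cationic carriers, was low in these cells and was called lower still after 5 cytokines. Unstimulated replicates 1 to 4 held 16.6, 19.7, 6.33 and 6.15 CPM, 9 to 34 counts. After IFNγ the level was 0.753, 0.00, 0.00 and 0.00 CPM, which made it at least 5.14-fold lower (adjusted p = 0.000739 for the fitted difference). After TNF it was 1.41, 1.72, 0.00 and 0.00 CPM, at least 5.70-fold lower (adjusted p = 0.00348). The 8 libraries held 5 counts together.

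IL-1β libraries held 2.52, 0.663, 0.00 and 0.648 CPM of SLC7A14 (adjusted p = 0.00747). IFNα libraries held 0.551, 1.98, 0.794 and 4.36 CPM (adjusted p = 0.0353) and TGF-β1 libraries 3.12, 2.13, 0.00 and 0.734 CPM (adjusted p = 0.0379). Each of these libraries lay below the lowest unstimulated one, but the calls for IFNα and TGF-β1 were each lost in 5 of 8 fits that left out 1 library, unstimulated replicate 1 or 2 among them, with adjusted p up to 0.121 and 0.129. IL-13 libraries held 11.5 to 28.6 CPM and IL-6 libraries 9.49 to 15.0 CPM, both within or above the unstimulated range. IL-17A libraries held 0.00, 0.00, 6.41 and 8.61 CPM (adjusted p = 0.352) and IL-22 libraries 2.28, 2.26, 6.41 and 5.12 CPM. Both had low means but overlapped with the unstimulated range and were not called. OSM libraries, at 2.37 to 14.8 CPM, overlapped with it too (adjusted p = 0.861).

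The cationic carriers SLC7A1 and SLC7A2, which take up arginine and lysine, were not called against unstimulated cells. SLC7A2, the inducible one of the pair in many cells, was called in the test over all 11 groups (adjusted p = 0.000358). It held 31.8, 31.3, 48.5 and 14.3 CPM in unstimulated cells, 48.9, 53.7, 62.3 and 48.6 CPM after IL-1β, and 21.2, 9.27, 9.23 and 4.44 CPM after IL-13. The IL-1β libraries lay just above the highest unstimulated one (adjusted p = 0.455). TGF-β1 and IL-13 had the lowest group means, 11.3 ± 9.15 and 11.0 ± 7.17 CPM (SD, n = 4), and adjusted p of 0.0891 and 0.0943, and DESeq2 called both. SLC7A1 had group means between 8.85 and 19.1 CPM. SLC3A1, the heavy chain best known from kidney and intestinal epithelium, had group means between 5.98 and 14.5 CPM, and its exons overlap with PREPL on the opposite strand.

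**Figure D5:**
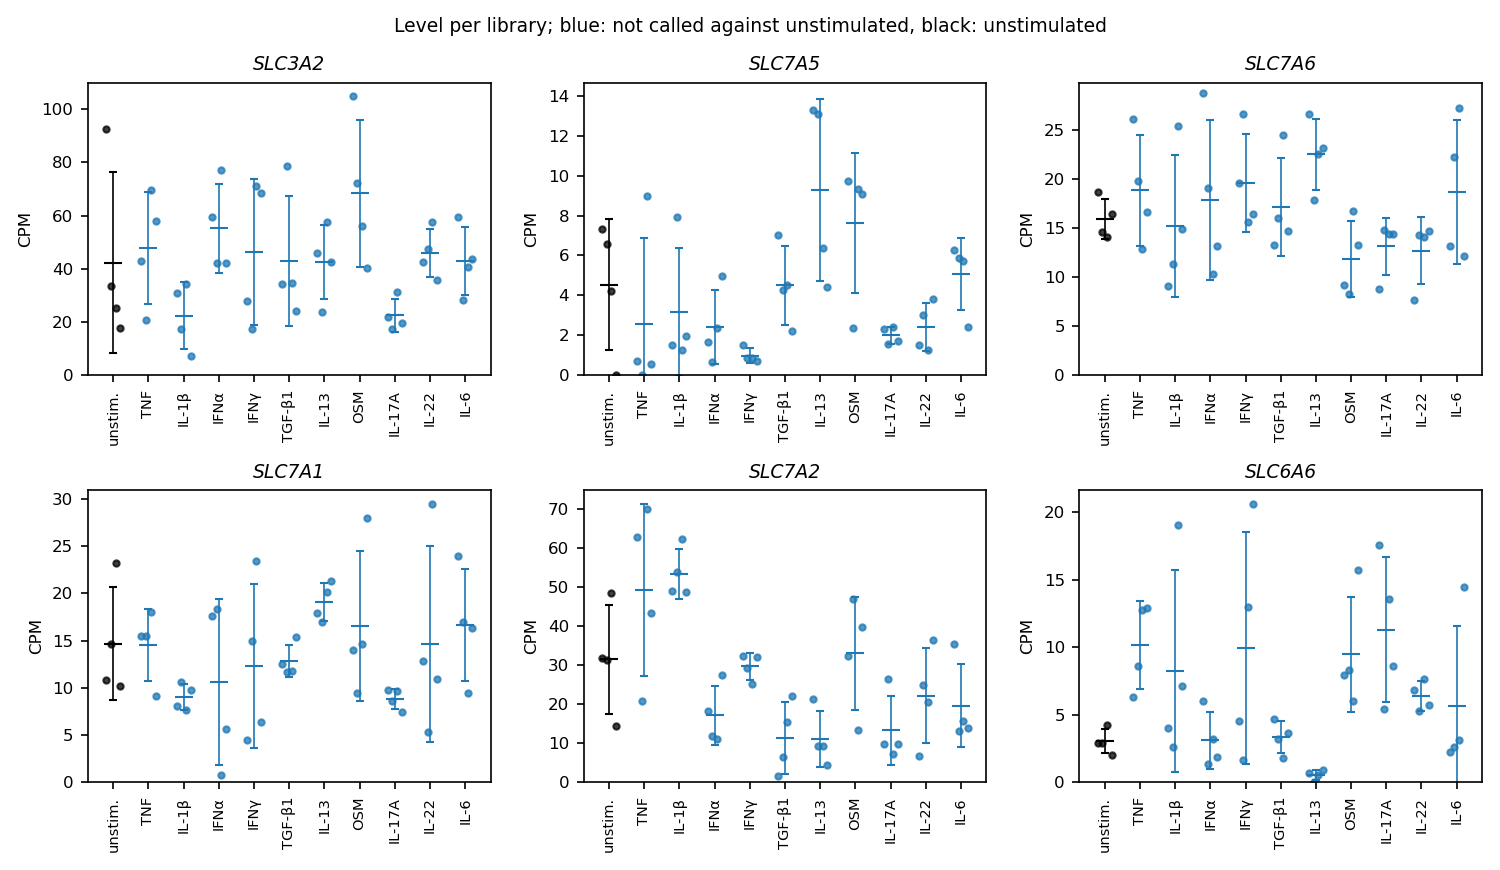
Level in CPM of the heavy chain SLC3A2, the light chains SLC7A5 and SLC7A6, the cationic carriers SLC7A1 and SLC7A2 and the taurine carrier SLC6A6 in each of the 44 libraries, with mean and SD (n = 4). No group was called against unstimulated cells (black), and the unstimulated SLC3A2 libraries spread from 17.8 to 92.5 CPM.

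Among the SLC1A members, SLC1A5, an exchanger of glutamine and other neutral amino acids, was called lower after TNF. It held 22.0, 15.3, 36.6 and 5.46 CPM in unstimulated replicates 1 to 4, and 6.35, 0.861, 2.25 and 11.8 CPM after TNF. The groups overlapped, with a fitted log2 difference of -1.81 (SE 0.50, adjusted p = 0.0117), and the call was lost without unstimulated replicate 3, TNF replicate 2 or TNF replicate 3 (adjusted p up to 0.105). IL-17A libraries were as low, at 2.78, 4.68, 9.62 and 6.89 CPM, and were not called (adjusted p = 0.0642).

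The glutamate carrier SLC1A1 had group means between 5.58 and 14.2 CPM and the serine and alanine exchanger SLC1A4 between 1.90 and 11.5 CPM, with no call for either. SLC1A4 libraries after IL-13 and after OSM lay above the unstimulated ones, with adjusted p of 0.494 and 0.458. Those after IL-1β and IFNα lay below the unstimulated ones, with adjusted p of 0.434 and 0.506. SLC1A2, SLC1A3, SLC1A6 and SLC1A7, which serve glutamate mostly in the nervous system and retina, lay below the filter with at most 18 counts in a library.

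SLC36A4, a carrier with high affinity for proline and tryptophan, moved in opposite directions after IL-1β and IFNα. It held 28.4, 64.9, 61.2 and 45.8 CPM in unstimulated replicates 1 to 4. IL-1β libraries held 83.8, 108, 85.8 and 114 CPM, above every unstimulated library (log2 fold change 0.97, SE 0.24, adjusted p = 0.00519). IFNα libraries held 16.0, 29.0, 28.6 and 16.2 CPM (log2 fold change -1.16, SE 0.26, adjusted p = 0.0011). The IFNα range reached the lowest unstimulated library, replicate 1, and both calls held in 14 alternatives each, but neither passed the fold threshold of 1.5. TNF libraries lay between 49.5 and 91.6 CPM (adjusted p = 0.335). SLC36A1, its lysosomal relative, had group means between 2.08 and 6.59 CPM and was not called.

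SLC6A15, a sodium-coupled carrier of branched-chain amino acids and proline that is best known from brain, had the largest rise of the called members. It held 21.1, 8.02, 37.3 and 60.8 CPM in unstimulated replicates 1 to 4 and 120, 177, 302 and 418 CPM after TNF. The groups did not overlap, and the log2 fold change was 3.01 (SE 0.75, 8.04-fold, adjusted p = 0.00421). IFNγ libraries held 95.7, 17.4, 283 and 299 CPM (log2 fold change 2.45, SE 0.74, adjusted p = 0.0229), and overlapped with unstimulated ones through replicate 2. The call for IFNγ was lost without unstimulated replicate 1 or 2 or IFNγ replicate 3 or 4 (adjusted p up to 0.0993).

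Replicates 3 and 4 of SLC6A15 lay above replicates 1 and 2 in 9 of the 11 groups, unstimulated cells included. IL-6 libraries, for instance, held 4.00, 3.92, 91.8 and 99.0 CPM. The labels give the numbers no meaning beyond a replicate, and of the 9513 tested genes 11 (0.116%) showed this order in as many groups. Within replicates 1 and 2, the mean was 149 CPM after TNF and 14.5 CPM in unstimulated cells, and within replicates 3 and 4 it was 360 and 49.0 CPM, so the rise was 10.2-fold and 7.34-fold. For IFNγ these values were 3.89-fold and 5.93-fold. Each of these means is of 2 libraries, and the split is a description and no test of the rise.

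IL-13 libraries held 0.00, 0.00, 5.77 and 11.5 CPM of SLC6A15, the lowest of all 11 groups, yet not called against unstimulated cells (log2 fold change -2.92, SE 1.00, adjusted p = 0.096). After IL-1β (74.7 to 209 CPM) and IL-17A (105 to 156 CPM) every library lay above the unstimulated range, with adjusted p of 0.117 and 0.156. TGF-β1 libraries lay between 59.6 and 218 CPM (adjusted p = 0.0773). The taurine carrier SLC6A6, at a far lower level, had 6.35, 8.61, 12.8 and 12.9 CPM after TNF, 2.94, 2.92, 4.22 and 2.05 CPM in unstimulated cells and at most 1 count in each IL-13 library. It was called in the test over all 11 groups (adjusted p = 0.00107) and not against unstimulated cells (adjusted p = 0.0806 for TNF). The other 17 SLC6A genes had no more than 8 counts in any library. SLC43A3, a carrier of nucleobases, was the single tested SLC43A gene, called in the test over all 11 groups (adjusted p = 0.0181), with 4.54, 2.65, 10.2 and 19.5 CPM after IL-1β against 4.41, 1.46, 0.00 and 0.683 CPM in unstimulated cells (adjusted p = 0.166).

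Pairs of cytokines were also compared directly, without the unstimulated libraries. TNF against IL-1β called 0 members by edgeR and 0 by DESeq2, with 4 members at an unadjusted p under 0.05, where 1.15% of all genes were called and 0.368% beyond a log2 fold change of 1.5. IFNα against IFNγ called 1 member, where 9.39% of all genes were called, 4.46% lower and 2.74% beyond 1.5. This was SLC36A4, lower after IFNα by 0.78 on the log2 scale (SE 0.26, adjusted p = 0.049). That call was lost in 6 of 8 fits that left out 1 library. The lower SLC7A11 after IFNγ than after IFNα was not called.

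IL-13 against TGF-β1 called 5 members (20.8%), where 12.4% of all genes were called and 4.82% beyond 1.5. Of the 5, 4 were higher after IL-13 (6.39% of all genes) and 1 was lower (6.05%). SLC38A6 was higher after IL-13 by 1.49 on the log2 scale (SE 0.22, adjusted p = 2.08e-06), SLC7A11 by 0.89 (adjusted p = 0.0024) and SLC7A14 by 3.64 (adjusted p = 0.00382). SLC6A15 was lower after IL-13 by 5.06 on the log2 scale (SE 0.96, adjusted p = 0.000144), with 80.3, 59.6, 200 and 218 CPM after TGF-β1. SLC38A1 was higher after IL-13 by 0.67 (SE 0.23, adjusted p = 0.0485), a call at the threshold that was lost in 6 of 8 fits that left out 1 library. OSM against IL-6 called 1 member, where 2.67% of all genes were called, 0.988% higher and 1.02% beyond 1.5. This was SLC38A6, higher after OSM by 0.85 on the log2 scale (SE 0.21, adjusted p = 0.0126), with IL-6 libraries at 78.8, 92.2, 103 and 100 CPM. The call was lost without IL-6 replicate 1 (adjusted p = 0.0596).

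Genes of neighbouring pathways, from lists chosen with earlier results of these data known, were counted in the same fit. The share of all tested genes called lower was 6.09% after TNF, 3.92% after IL-1β, 4.86% after IFNα, 5.13% after IFNγ, 3.08% after TGF-β1, 2.4% after IL-13, 2.54% after OSM and 0.925% after IL-17A. The share called higher was 5.37% after TNF, 3.46% after IL-1β, 4.99% after IFNα, 5.52% after IFNγ, 2.61% after TGF-β1, 1.53% after IL-13, 1.42% after OSM and 0.599% after IL-17A. Of 23 tested genes of the ATF4 amino acid response, 11 were called lower after TNF, 11 after IL-1β, 6 after IFNγ, 4 each after IFNα and IL-17A and 2 after TGF-β1, while 4 were called higher after IL-13 and 2 after OSM. ASNS, the asparagine synthetase, was at 126 ± 21.3 CPM in unstimulated cells, 16.8 ± 4.93 after TNF and 25.2 ± 7.11 after IL-1β (SD, n = 4 each, adjusted p = 4.16e-09 and 2.29e-07). The median log2 fold change of this list was -1.14 after TNF and -1.31 after IL-1β.

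Of 14 tested genes of glutathione and cysteine handling, 3 were called lower and 1 higher after TNF, 3 lower after IFNγ, 3 lower after TGF-β1, 1 lower and 1 higher each after IFNα and OSM and 1 higher after IL-13. A count of 1 of 14 is a single gene, and nothing is read from it about the list. TXNRD1, a thioredoxin reductase, fell from 251 ± 76.1 to 96.1 ± 10.3 CPM after IFNγ (SD, n = 4 each, log2 fold change -1.38, adjusted p = 1.81e-06). GCLM, the modifier subunit of the enzyme that starts glutathione synthesis, fell to 56.9 ± 23.2 CPM after TGF-β1 and rose to 248 ± 74.5 after IL-13 and 238 ± 32.7 after OSM, from 129 ± 27.9 CPM (SD, n = 4 each, adjusted p = 0.00575, 0.0273 and 0.0415).

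Of 16 tested genes of arginine and polyamine metabolism, SAT1, which acetylates polyamines for export, rose after TNF, IL-1β, IFNγ and IL-17A, most after IL-1β, from 631 ± 214 to 2786 ± 236 CPM (SD, n = 4 each, adjusted p = 1.32e-09). DDAH1, which degrades methylated arginines, fell from 157 ± 42.7 CPM to 11.3 ± 22.5 after IL-1β and 19.9 ± 26.0 after IFNγ (SD, n = 4 each, adjusted p = 0.000433 and 0.00402), and SMS, the spermine synthase, fell after IL-13 (-0.67, adjusted p = 0.0217). Of 15 tested genes of glutamine, serine and proline metabolism, 5 were lower after TNF, 5 after IL-1β, 4 each after IFNα and IFNγ, 2 after IL-17A and 1 each after TGF-β1, IL-13 and OSM, and 1 was higher after each of IFNγ and TGF-β1. This list shares genes with that of the ATF4 amino acid response, PSAT1, ASNS, PHGDH and PSPH among them. The calls after IL-17A and the lower call after TGF-β1 were all of shared genes. The glutamine synthetase GLUL was higher after IFNγ (log2 fold change 1.22, adjusted p = 0.0136). Of 9 tested amino acid carriers outside the 7 families, SLC22A4, a carrier of ergothioneine, was the single one called, higher after TNF (2.16, adjusted p = 0.024) and IFNγ (2.07, adjusted p = 0.0346) and lower after IL-13 (adjusted p = 0.0263), where 1 library held 1 count and the others none.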

How the data were processed

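RNA of 44 libraries was sequenced on an Illumina NovaSeq after NEBNext Ultra II library preparation. The authors checked reads with FastQC 0.11.9 and MultiQC 1.14 and quantified them with kallisto 0.48.0 at default settings, which use no strand, on hg38 by their processing notes. They deposited estimated counts for 40663 gene symbols, 1 column per library, of which 5.73% of values were not whole. The release of the transcriptome and how transcripts were summed to symbols are not given in the sources used here. Groups came from the sample titles, and columns were matched to samples by library number (0 columns not used). Replicates of a group differed beyond counting noise in all 66 pairs. Nothing states that they were separate cultures, so p-values measure the spread between these samples, which may be technical. The sources differ on the IL-1β dose, and that of the sample labels is given.

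Estimated counts were rounded to whole numbers. Genes were filtered with filterByExpr over the 11 groups (9513 kept), scaled by TMM and fitted over all 44 libraries with edgeR 4.0.16 glmQLFit and glmQLFTest in R 4.3.3 (limma 3.58.1). P-values were adjusted by Benjamini-Hochberg over all tested genes, and an adjusted p under 0.05 (two-sided) made a call. Comparisons were each cytokine against unstimulated cells, 4 pairs of cytokines, and all 11 groups together. DESeq2 1.42.0, its size factors, 2 other filters, fits of only the groups compared, a replicate block, a fold threshold and leaving out each library were the alternatives. A group with at most 3 counts in every library gave a fold only as a bound, against the mean CPM of 3 counts. That bound uses the mean of the other group and leaves out its spread. Positions and lengths of canonical transcripts were from GENCODE release 44 on GRCh38 (lengths for 9460 tested genes), and upstream windows from RefSeq (GRCh38.p14). The script was tested on simulated data. Tables and figures used Python 3.11.15, numpy 2.4.6, pandas 2.3.3 and matplotlib 3.10.9.

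Every called member was named with its values. SLC38A1, SLC38A2, SLC38A4, SLC38A6, SLC7A14, SLC7A11, SLC6A15 and SLC36A4 were to be given in every library, along with SLC3A2 and its light chains whatever their result. The members, lists and tests were chosen with earlier results of these data known. A few genes are not reported here by name.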

Additional observations from a re-analysis of the deposited data

Results flagged for a closer look

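In 12 of 117 sets of 4 libraries examined, 1 library lay far from the other 3 (a gap above Dixon's 95% limit). About 5.8 would be flagged by chance if the values were independent and normal. Low counts need not be normal, so nothing is read from the excess. SLC38A2 was at 667 CPM in unstimulated replicate 1 and at 1062 to 1070 CPM in the other 3. SLC38A1 was at 134 CPM in IL-13 replicate 4 against 208 to 221 CPM, and SLC38A4 at 3.30 CPM in OSM replicate 4 against 10.7 to 11.9 CPM. SLC38A6 was at 115 CPM in IFNγ replicate 2 against 65.0 to 73.1 CPM, and at 153 CPM in OSM replicate 4 against 172 to 175 CPM. SLC7A11 was at 135 CPM in TGF-β1 replicate 2 against 95.4 to 98.0 CPM. SLC7A6 was at 8.81 CPM in IL-17A replicate 1 against 14.4 to 14.8 CPM, and at 7.60 CPM in IL-22 replicate 1 against 14.1 to 14.7 CPM. The low-count gene SLC7A5 gave 4 of the 12, with 7.95 CPM in IL-1β replicate 2 (others 1.27 to 1.95), 9.00 CPM in TNF replicate 3 (others 0.00 to 0.706), 2.42 CPM in IL-6 replicate 4 (others 5.70 to 6.28) and 2.37 CPM in OSM replicate 2 (others 9.07 to 9.74).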

How the results depend on the processing

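Of the 24 calls against unstimulated cells, 18 kept direction and threshold in every alternative that tested them other than the fold threshold, as did 4 of 7 calls between cytokines, and 0 values reversed. Of these, 9 and 2 also passed a log2 fold of 1.5. With only the libraries compared, TNF called 4 members, IFNγ 2, IL-17A 2 and IFNα against IFNγ 0. The filter of that fit left 14 or 15 members in these comparisons. Neither SLC38A4 (TNF) nor SLC7A14 (TNF, IFNγ, IL-1β, IFNα and TGF-β1 against unstimulated cells) was tested in that fit. DESeq2 also gave no adjusted p for SLC7A14 after IFNγ, so that call was judged in 12 alternatives. With all genes that had a count, TGF-β1 called 4, IL-13 3, OSM 2, IL-17A 2, IL-22 1 and TNF against IL-1β 1. DESeq2 called 3 for IL-13 and 1 for IL-22. With a fold threshold of 1.5, IL-1β called 2, IFNα 2, TGF-β1 1, IL-13 against TGF-β1 2, and IL-13, OSM, IL-17A, IFNα against IFNγ and OSM against IL-6 0. The cause of these moves was not tested, beyond fewer libraries, more genes or a stricter rule by construction. Leaving out 1 library moved the count to 1 to 4 for TGF-β1, 1 to 2 for IL-13 and OSM, 0 to 2 for IL-17A and IFNα against IFNγ, and 0 to 1 for OSM against IL-6. Leaving out 1 replicate number of all groups gave 10 to 12 members over the 11 groups. Replicate numbers did not pair the samples throughout. The lowest correlation of same-numbered libraries lay between -0.125 and 0.036 over the 14 comparisons. In none was every library closest to its own number. The mean same-number correlation ran from -0.028 (IL-17A against unstimulated) to 0.13 (IL-6 against unstimulated), where other numbers gave 0.009 and -0.043. The highest single value was 0.281, for replicate 1 of IL-6 and of unstimulated cells. With the replicate block, IL-13, IL-17A and IFNα against IFNγ each called 2, and SLC6A15 was called after TNF, IFNγ, IL-1β, IL-17A, TGF-β1 and IL-13, with no call lost. A group of 3 counts or fewer per library, as for SLC7A14 after IFNγ, bounds a fold and gives no size.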

Other observations

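Replicates of SLC6A15 differed by number in most groups. Replicates 1 and 2 averaged 14.5 CPM in unstimulated cells, 80.8 CPM after IL-1β, 3.96 CPM after IL-6 and 146 CPM after IL-17A, while replicates 3 and 4 averaged 49.0, 160, 95.4 and 130 CPM. The fold over unstimulated cells was thus 0.272 and 1.95 for IL-6 and 10.1 and 2.66 for IL-17A in these pairs of replicates. The median tested gene had this order of replicates in 2 of the 11 groups. Other members had the opposite order in several groups. Replicates 3 and 4 lay below replicates 1 and 2 in 6 groups for SLC7A14 and above them in 2. For SLC1A4 these counts were 6 and 0, and for SLC38A4 5 and 1. The labels name no batch, and what the numbers share was not tested.

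SLC1A2, a glutamate carrier of astrocytes, lay below the filter and had the lowest adjusted p among such members (0.127) in the fit of all genes with a count, after OSM, where the 4 libraries held none.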
